A study of Mus musculus with 2 samples.

Results

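The cells described here are lymphocytes with natural killer (NK) receptors and no detected T cell co-receptor or CD3 epsilon transcript, taken from immune cells of mouse mammary tumours. A cell was a member if it held at least 1 UMI (unique molecular identifier, a counted transcript) of Ncr1 or Klrb1c and at least 3 UMIs of Nkg7. It had to hold no UMI of Cd3e, Cd8a, Cd8b1 or Cd4, fewer than 10 C1q UMIs per 10000 and fewer than 50 S100a8 and S100a9 UMIs per 10000. It also had to hold fewer than 3 UMIs of Mki67, Top2a, Birc5 and Cdk1 together. In all, 429 of 12351 cells met this rule, 27 of them in PyMT-N tumours and 402 in PyMT-M tumours. The members were selected on these measured values, so the levels of those genes are a description and support nothing.

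Both tumour types were grown by injecting cells of a line, PyMT-N or PyMT-M, into the mouse mammary gland. PyMT abbreviates polyomavirus middle T antigen, an oncogene with which mammary cancer is modelled in mice; the meaning of N and M is not stated. Harvest was at 4 weeks, when tumours measured 0.7 to 1 cm across, and living cells with the blood cell surface protein CD45 were sorted for 10x Genomics 5′ single-cell RNA sequencing. The study has 1 library of each line, with no label on host strain, sex or number of animals, so the line and the library cannot be told apart. With 1 library a line no comparison has a replicate check, and all intervals are 95% and cover counting error only.

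NK cells are innate lymphocytes that kill stressed, infected or transformed cells without a rearranged antigen receptor. They release granules with perforin, which opens the target membrane, and granzymes, the proteases that enter through it, and they balance activating against inhibitory receptors that read MHC class I. Type 1 innate lymphoid cells (ILC1) share Ncr1 (NKp46), Klrb1c (NK1.1) and interferon gamma production but stay in tissues. In mouse tissues the transcription factor Eomes is used to mark conventional NK cells, and the collagen-binding integrin Itga1 (CD49a) to mark ILC1, while TGF-beta can give NK cells ILC1 features.

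Markers outside the rule were those of killer lymphocytes, while the genes that tell NK cells from ILC1 were split among the members. Of the markers given for these cells, Gzma was found in 66.7% of PyMT-N members and 50.5% of PyMT-M members, Xcl1 in 66.7% and 92.3% of them in the same order, and Gzmc in 18.5% and 57.7%. The adaptor Tyrobp, not used by the rule, was in every member of both libraries. Its share in macrophages and neutrophils is not given here, so it does not tell members from those cells. The ILC2 and ILC3 list held 0 UMIs in PyMT-N members and 8 UMIs in PyMT-M members, with 10 of its 12 genes at 0 in PyMT-M, among them Il23r, Il22, Il17a, Il13 and Il5. Eomes was found in 37.0% (19.4 to 57.6) of PyMT-N members and 28.9% (24.5 to 33.6) of PyMT-M members, and Itga1 in 14.8% (4.19 to 33.7) and 49.3% (44.3 to 54.3) of them, shares that depth limits.

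Members made up 0.541% (0.357 to 0.786) of the 4994 cells kept in PyMT-N and 5.46% (4.96 to 6.01) of the 7357 cells kept in PyMT-M. The 2 libraries differ in makeup throughout: neutrophils were 44.2% of PyMT-N cells and 0.394% of PyMT-M cells, and C1q macrophages were 11.4% and 70.8%. CD8 T cells were also scarcer in PyMT-N, at 0.441% and 4.17%, so the low share there was not particular to the members. A median PyMT-N member held 3420 UMIs (range 1045 to 10646) and a median PyMT-M member 5814.5 (range 606 to 24685). Because depth differs, shares of cells with a gene are also given after each cell was thinned to 1000 UMIs, which left out 0 PyMT-N and 3 PyMT-M members. Of barcodes, 60 occur in both libraries, 1 of them a member, and none is a member in both.

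Values just inside and outside the thresholds show how the rule bounds the population. In PyMT-M, 8 members held exactly 3 Nkg7 UMIs and 1 further cell held 2, against a member median of 17. Receptor counts were lower, with 26 PyMT-M members resting on 1 UMI of Ncr1 or Klrb1c and a median of 5. The limit on T cell transcripts alone kept out 4 PyMT-N and 100 PyMT-M cells, and the C1q limit alone 0 and 81. The limit on cycling genes kept out 12 PyMT-N and 59 PyMT-M cells, of which 7 in PyMT-M stood at exactly 3 UMIs while 9 members stood at 2.

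The sequences upstream of 4 effector genes are shown because the transcripts described first, granzymes A, B and C and the chemokine Xcl1, come from them, and because RUNX3, a RUNX family factor, was itself transcribed in the members. Runx3 was in 40.7% of PyMT-N members and 52.7% of PyMT-M members. Each window runs from 250 bases before to 50 bases after the gene start in RefSeq on GRCm38.p6, all on the minus strand: chr13:113100932-113101231 for Gzma, chr14:56262285-56262584 for Gzmb, chr14:56234608-56234907 for Gzmc and chr1:164935473-164935772 for Xcl1. Capitals mark a match to the RUNX motif TGTGGTT on either strand (AACCACA on the other).
Gzma: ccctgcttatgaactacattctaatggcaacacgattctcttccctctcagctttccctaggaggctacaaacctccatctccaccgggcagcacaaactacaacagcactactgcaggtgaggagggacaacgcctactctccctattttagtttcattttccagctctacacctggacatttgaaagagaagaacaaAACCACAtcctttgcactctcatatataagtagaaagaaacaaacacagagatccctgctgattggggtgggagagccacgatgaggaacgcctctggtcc
Gzmb: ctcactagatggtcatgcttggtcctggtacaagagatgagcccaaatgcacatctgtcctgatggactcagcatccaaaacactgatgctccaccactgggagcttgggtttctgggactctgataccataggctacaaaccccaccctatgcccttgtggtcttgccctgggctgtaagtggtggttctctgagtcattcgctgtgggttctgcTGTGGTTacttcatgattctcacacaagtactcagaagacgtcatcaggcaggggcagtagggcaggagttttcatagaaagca
Gzmc: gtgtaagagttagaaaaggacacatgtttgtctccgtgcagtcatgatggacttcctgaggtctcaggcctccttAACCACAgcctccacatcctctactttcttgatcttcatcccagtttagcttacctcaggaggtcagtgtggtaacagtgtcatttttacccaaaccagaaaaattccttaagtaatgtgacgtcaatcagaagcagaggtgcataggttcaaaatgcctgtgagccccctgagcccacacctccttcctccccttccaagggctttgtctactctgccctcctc
Xcl1: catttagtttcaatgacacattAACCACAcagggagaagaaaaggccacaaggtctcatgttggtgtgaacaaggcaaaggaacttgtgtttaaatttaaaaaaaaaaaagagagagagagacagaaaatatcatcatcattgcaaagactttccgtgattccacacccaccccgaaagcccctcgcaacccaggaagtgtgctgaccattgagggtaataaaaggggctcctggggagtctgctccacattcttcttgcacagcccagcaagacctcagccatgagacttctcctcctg

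Each of the 4 windows held 1 RUNX match, starting at base 200 for Gzma, 217 for Gzmb, 76 for Gzmc and 23 for Xcl1, counted from 1 at the 5′ end. Across all 32851 RefSeq windows of this length, 5.27% held the motif. Searched in the same way, the T-box motif TCACACC (3.98% of all windows) was found in Xcl1 alone, and the AP-1 motif TGACTCA (5.2%) in Gzmb alone. The windows of Itga1, Prf1 and Klf2 held none of the 3. RUNX matches were also in the searched windows of Gzmf (base 55), Ncr1 (bases 75 and 66 for different gene starts) and Spp1 (base 122), though another Spp1 window held none. These 4 windows were chosen with the matches known, and a match describes letters, not a bound site.

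Gzmb was found in most members of both libraries and Prf1 in a minority. Gzma was found in most PyMT-N members, while PyMT-M members divided almost evenly between holding it and not. Levels are given as CPM, the UMIs of a gene scaled to a total of 1000000 over the group of cells named. Gzma, which encodes a tryptase-like granzyme, reached 5186 CPM in PyMT-N members and 7124 CPM in PyMT-M members. In the 307 PyMT-M CD8 T cells Gzma was at 472 CPM. In PyMT-N, 9 of 27 members held 0 Gzma UMIs, 3 held 1 to 9 and 15 held 10 or more. In PyMT-M, 199 of 402 held 0, 52 held 1 to 9 and 151 held 10 or more, with a maximum of 624 in 1 cell. Most members thus held either none or many of its UMIs. After thinning, 63.0% of PyMT-N and 43.9% of PyMT-M members held it. Outside the killer cells Gzma was rare: 0.0453% of PyMT-N neutrophils and 1.13% of PyMT-M macrophages held a Gzma UMI, at median depths of 1867.5 and 5016 UMIs.

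Gzmb, the aspartate-cleaving granzyme that activates caspases, stood at 2652 CPM in PyMT-N members, 4863 CPM in PyMT-M members and 1505 CPM in PyMT-M CD8 T cells. The median member held 2 Gzmb UMIs in PyMT-N and 19 in PyMT-M. Its UMIs were concentrated in few PyMT-N cells, 2 of which held 157 of 272. Perforin (Prf1) was found in 37.0% of PyMT-N members and 36.6% of PyMT-M members, at 341 CPM and 116 CPM.

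Gzmc, a granzyme of the mouse cluster on chromosome 14 that is induced in strongly activated killer cells, was the granzyme with the highest ratio to T cells. In PyMT-M it stood at 1479 CPM in members and 22.2 CPM in CD8 T cells, log2 6.0 [5.54 to 6.64]. Members with it numbered 232 of 402, and 77 of them held 10 or more UMIs. In PyMT-N it was found in 5 of 27 members, and 2 of these held 26 of the 29 UMIs. Of its neighbours in the cluster, Gzmd and Gzmg had 0 UMIs in members of both libraries. Gzmf had 131 UMIs in PyMT-M, 118 of them in 2 cells, and 0 in PyMT-N. These genes are near-identical copies, so how reads were divided between them is uncertain.

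**Figure D1:**
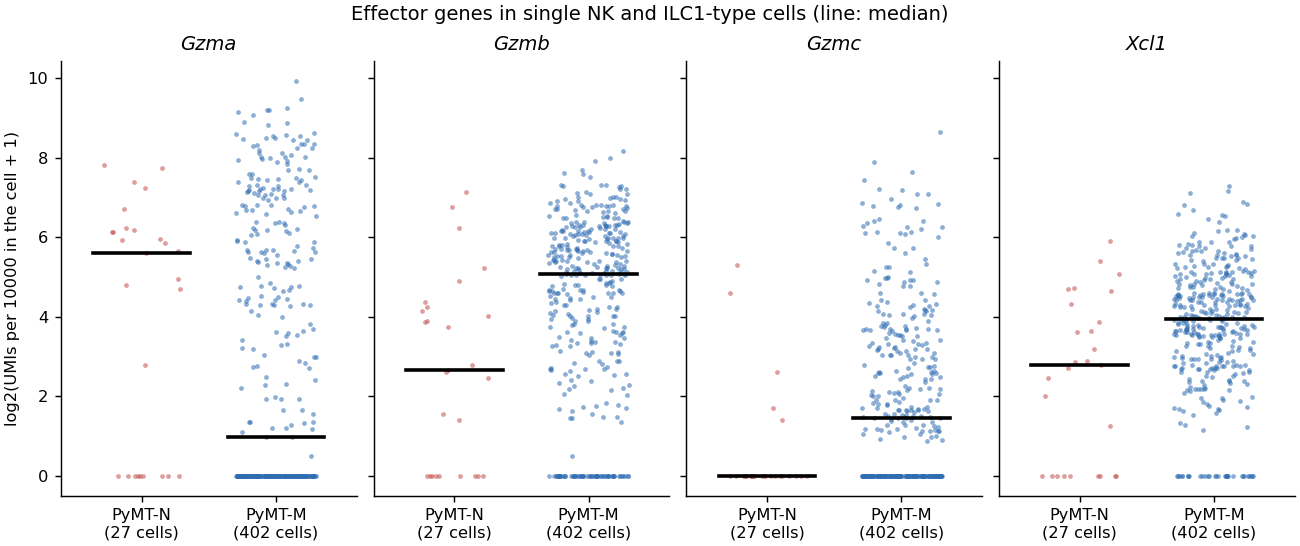
Gzma, Gzmb, Gzmc and Xcl1 in single members of PyMT-N (27 cells, left) and PyMT-M (402 cells, right), as log2 of UMIs per 10000 in the cell plus 1; each point is a cell and the line is the median. Gzma is at 0 in 9 and 199 cells, at 1 to 9 UMIs in 3 and 52, and at 10 or more in 15 and 151. Gzmc is at 0 in 22 of 27 PyMT-N members.

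How the members differ from T cells of the same tumour was read against the 307 PyMT-M CD8 T cells (Cd3e with Cd8a or Cd8b1, no Cd4, same limits on C1q, S100a8, S100a9 and cycling genes). Ratios are given as log2 of CPM plus 1, members over CD8 T cells, with the interval in square brackets, for the 4200 genes with 100 UMIs over both. Of these, 5.26% were at least 2-fold higher and 3.29% at least 2-fold lower, with a median of 0.02. The rule removes T cell genes, so this contrast is partly set by it and the counts describe the population only.

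Killing genes were higher as a group: 8 of 16 measured granule genes were at least 2-fold higher and 1 lower, with a median of 0.90. The 8 were Gzma, Gzmb, Gzmc, Gzmf, Prf1, the granzyme inhibitors Serpinb9 and Serpinb6b, and the death ligand Tnfsf10 (TRAIL). Gzmk ran the other way, at 0.788 CPM in members and 461 CPM in CD8 T cells, and had 0 UMIs in PyMT-N members. Granule genes together made up 179.5 UMIs per 10000 in members and 56.9 per 10000 in CD8 T cells.

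Receptors showed the plainest contrast. Of 18 measured activating receptors and adaptors, 11 were at least 2-fold higher in members and 1 lower, with a median of 1.95. Tyrobp (DAP12), the adaptor that carries signals from activating receptors, was at 4458 CPM in members and 412 CPM in CD8 T cells, log2 3.43 [3.31 to 3.56]. The adaptor Fcer1g gave log2 2.40 [2.32 to 2.49] and Klrk1 (NKG2D), which binds stress ligands, log2 2.04 [1.78 to 2.33]. The gene that was lower was Cd247, the CD3 zeta chain, at 74.9 CPM and 353 CPM.

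Genes listed as inhibitory receptors followed the same direction, with 9 of 15 at least 2-fold higher and 2 lower, and a median of 1.91. The 9 were killer lectin-like receptors, among them Klrd1 (CD94, log2 1.98 [1.78 to 2.20]), Klre1 (log2 2.71 [2.40 to 3.09]) and the Ly49 genes Klra7 (log2 2.15 [1.90 to 2.42]) and Klra9 (log2 3.46 [2.89 to 4.30]). Klri2 (log2 4.89 [3.98 to 6.85]) was also among the 9, but its listing as inhibitory is uncertain. The 2 that were lower were the checkpoint genes Pdcd1 (PD-1, log2 -5.95 [-8.17 to -5.29]) and Ctla4 (log2 -2.59 [-3.25 to -2.12]). Pdcd1 was in 0.995% of members and 38.8% of CD8 T cells. Tigit, an inhibitory receptor for nectin-family ligands, was close to equal, at 301 CPM in members and 304 CPM in CD8 T cells.

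Ly49 receptors bind MHC class I, and single NK cells are known to carry different sets of them. At least 3 of 8 Ly49 genes were found in 37.0% of PyMT-N members, 49.8% of PyMT-M members and 5.54% of PyMT-M CD8 T cells. None of the 8 was found in 29.6%, 15.2% and 81.4% of these cells in the same order, and after thinning to 1000 UMIs in 55.6%, 38.6% and 89.8%. Thinned in that way, at least 3 were found in 11.1% (2.35 to 29.2), 10.5% and 0.656%. Thinned to 2000 UMIs, at least 3 were found in 14.3% (3.05 to 36.3) of PyMT-N and 22.5% of PyMT-M members. The PyMT-N interval held the PyMT-M share at both depths, so the order of the lines in this share is uncertain. Klra8 (Ly49H), Klra4 (Ly49D) and Klra7 (Ly49G) were in 47.0%, 30.8% and 52.2% of PyMT-M members. Ly49 genes are close copies of each other, and reads may have been split between them.

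Among secreted factors, 5 of 9 measured genes were at least 2-fold higher in members and 2 lower. Xcl1, the chemokine that draws XCR1+ dendritic cells, was at 2289 CPM in members and 468 CPM in CD8 T cells, log2 2.29 [2.17 to 2.41], and at 1579 CPM in PyMT-N members. The inflammatory chemokines Ccl4 and Ccl3 gave log2 1.21 [1.10 to 1.33] and log2 1.34 [1.02 to 1.69]. Ccl5 was in 97.0% of members and 89.6% of CD8 T cells, at 10774 CPM and 14594 CPM, so its log2 -0.44 [-0.46 to -0.41] did not reach 2-fold. The 2 genes that were lower were Ltb (lymphotoxin beta, log2 -1.04 [-1.16 to -0.93]) and Ifng (interferon gamma, log2 -1.08 [-1.54 to -0.66]), and Ifng was in 13.7% of members.

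Spp1 (osteopontin), a secreted matrix protein often made by macrophages, had the largest ratio of a secreted factor, log2 7.10 [5.97 to 10.87]. It was found in 39.6% of PyMT-M members, 0.326% of CD8 T cells and 8.22% of macrophages, at 346 CPM, 1.53 CPM and 67.7 CPM. In PyMT-N it was in 3 of 27 members, and 1 of these held 21 of the 27 UMIs. The macrophage list outside the rule stood at 3.31 UMIs per 10000 in PyMT-M members, 7.70 in CD8 T cells and 719 in macrophages, with Mrc1 at 0 in the members. The part of macrophage RNA in the Spp1 counts was not tested.

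**Figure D2:**
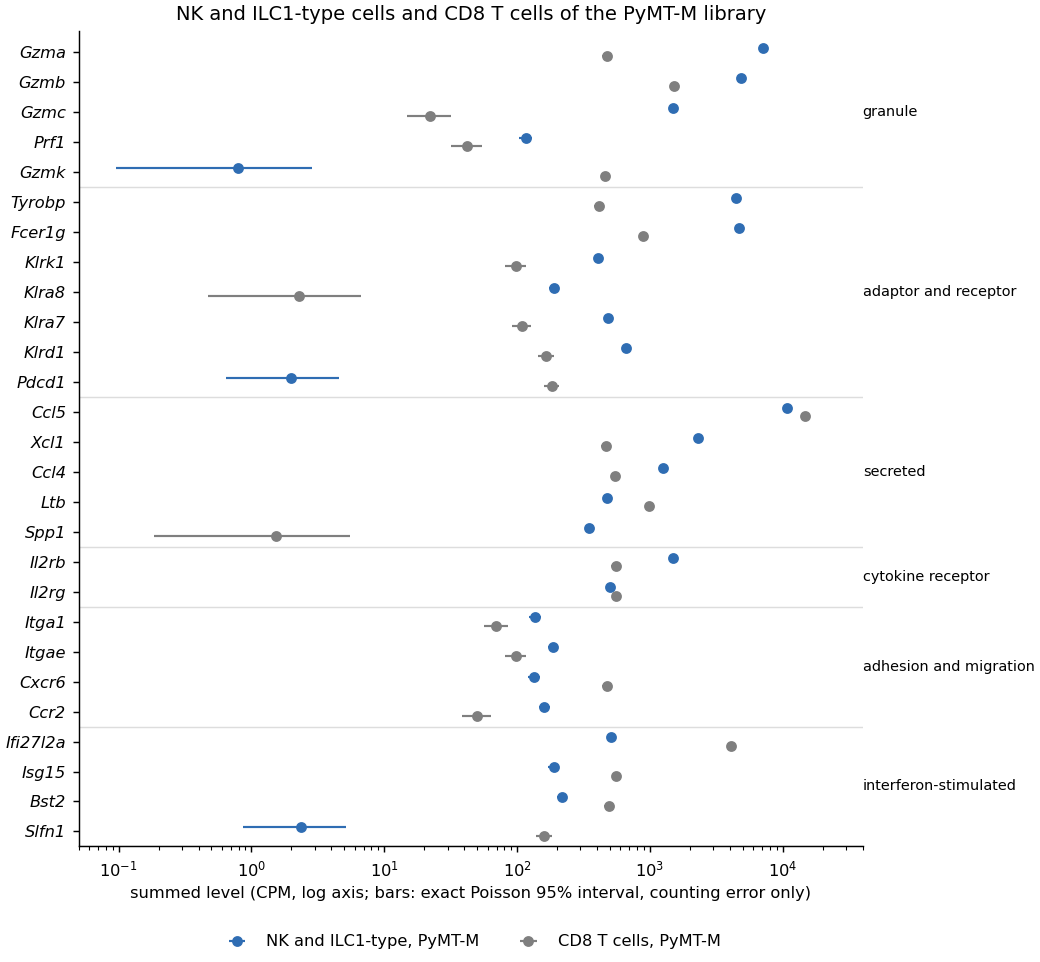
Summed level of 27 genes in the 402 members (blue) and 307 CD8 T cells (grey) of PyMT-M, in CPM on a log axis, with exact Poisson 95% intervals of counting error. Gzma, Gzmb, Gzmc, Tyrobp, the Ly49 genes, Xcl1 and Spp1 lie to the right in the members, while Gzmk, Pdcd1, Cxcr6 and the 4 interferon-stimulated genes lie to the left.

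Cytokine receptors were mostly close to those of CD8 T cells, with 1 of 10 at least 2-fold higher and 1 lower (Il10ra, log2 -1.01 [-1.32 to -0.73]). The higher one was Il2rb (CD122, log2 1.43 [1.31 to 1.54]), the chain shared by the interleukin-2 and interleukin-15 receptors on which NK cells depend. Of 16 JAK-STAT genes, 2 were at least 2-fold higher (Socs2 and the death gene Bcl2l11) and 2 lower, among them the survival gene Bcl2a1b. Among transcription factors, 2 of 17 were higher and 3 lower. Irf8 gave log2 1.82 [1.49 to 2.19] and Nfil3, needed for NK cell development, log2 1.44 [0.90 to 2.12], while Tcf7 (log2 -2.42 [-3.20 to -1.89]), Ikzf2 (log2 -1.86 [-2.38 to -1.44]) and Klf2 (log2 -1.45 [-1.75 to -1.19]) were lower. Tbx21 (T-bet) and Eomes, the T-box factors of killer lymphocytes, gave log2 0.83 [0.42 to 1.30] and log2 0.01 [-0.36 to 0.38].

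Genes of tissue residency were mixed. Of 16 measured ILC1 and tissue-resident genes, 4 were at least 2-fold higher (Tnfsf10, Rgs2, Tmem176a and Tmem176b) and 5 lower, with a median of 0.23. Itgae (CD103), which binds E-cadherin, was at 186 CPM in members and 97.8 CPM in CD8 T cells, log2 0.92 [0.64 to 1.22], and Itga1 gave log2 0.97 [0.64 to 1.33]. The chemokine receptor Cxcr6, used to mark resident cells, was at 135 CPM and 473 CPM, log2 -1.80 [-2.01 to -1.62]. Of 17 genes listed as imprinted by TGF-beta, 5 were at least 2-fold higher and 1 lower (Ctla4), with a median of 0.75. The higher ones were Xcl1, the signalling regulator Rgs1 (log2 1.76 [1.66 to 1.86]), the tetraspanin Cd9 (log2 2.97 [2.40 to 3.78]), Tnfrsf9 (4-1BB, log2 2.12 [1.58 to 2.82]) and Ccl1, of whose 157 UMIs 69 were in 2 cells. Of 14 migration receptors, Ccr2 was at least 2-fold higher (log2 1.67 [1.31 to 2.09]) and Cd2, Cxcr3 and Cxcr6 lower.

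Interferon-stimulated genes were mostly lower. Of 29 measured type I interferon-stimulated genes, 0 were at least 2-fold higher and 18 at least 2-fold lower in members than in CD8 T cells, with a median of -1.22 beside 0.02 for all genes. The list summed to 30.6 UMIs per 10000 in members and 98.9 in CD8 T cells. Ifi27l2a had the largest share of that sum, at 512 CPM and 4094 CPM. The ubiquitin-like Isg15 gave log2 -1.57 [-1.74 to -1.40], the antiviral Bst2 (tetherin) log2 -1.18 [-1.35 to -1.02], Ifit3 log2 -2.89 [-3.40 to -2.51] and Slfn1 log2 -5.58 [-7.54 to -4.93]. With every cell thinned to 1000 UMIs, 20.3% (16.5 to 24.6) of members and 68.9% (63.3 to 74.0) of CD8 T cells held 5 or more UMIs of the list. PyMT-M γδ-type T cells (31 cells) stood between, at 38.7% (21.9 to 57.8). In PyMT-N the gap was not clear, at 11.1% (2.35 to 29.2) of 27 members and 22.7% (7.82 to 45.4) of 22 CD8 T cells, intervals that overlap.

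Genes that interferon gamma induces and those of antigen presentation were lower too. Of 15 interferon-gamma-responsive genes, 7 were at least 2-fold lower and 1, Irf8, higher. The immunoproteasome gene Psmb8 gave log2 -0.97 [-1.06 to -0.87] and the GTPase gene Igtp log2 -1.78 [-2.17 to -1.46]. Of 14 MHC class I genes, 3 were at least 2-fold lower (H2-Q7, H2-M3 and the peptide transporter Tap1) and 0 higher, while B2m gave log2 -0.10 [-0.16 to -0.04]. Immediate early genes did not set the populations apart, with 0 of 18 past 2-fold in either direction. Of 10 cell cycle genes outside the rule 0 were past 2-fold, in populations both limited on cycling genes. Glycolysis genes were near equal apart from Tpi1 (log2 1.21 [0.89 to 1.56]) and the lipid droplet gene Hilpda (log2 1.45 [1.04 to 1.94]), at least 2-fold higher among 13.

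**Figure D3:**
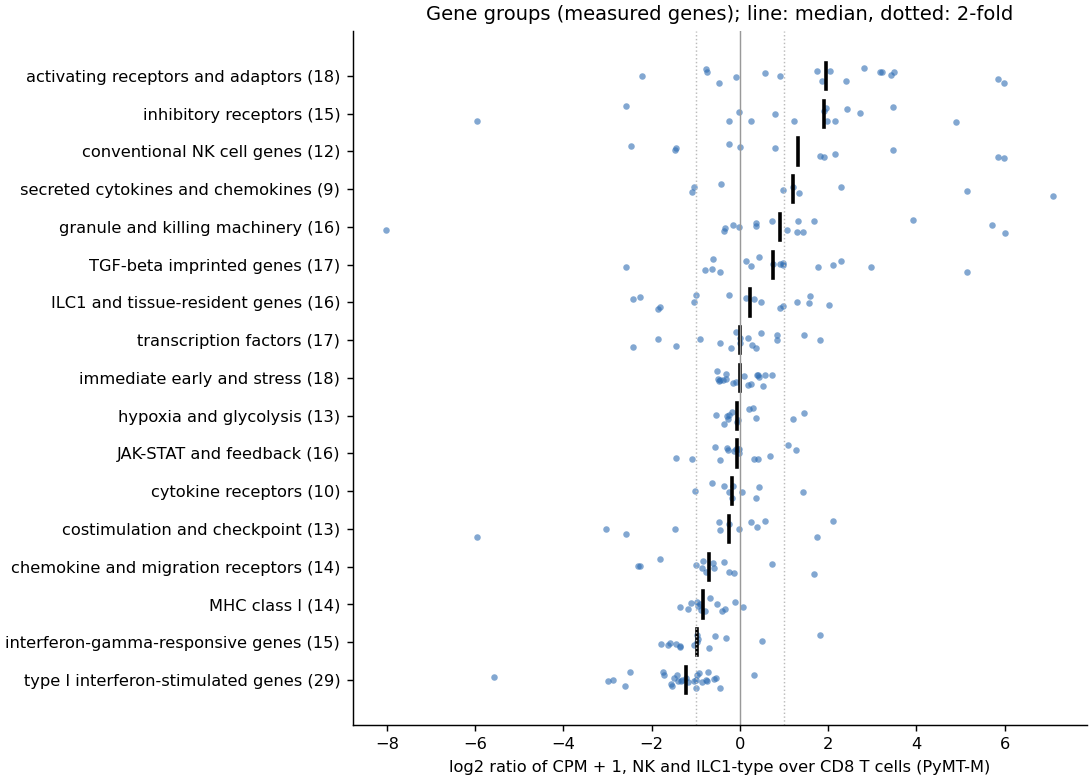
Log2 ratio of CPM plus 1, members over CD8 T cells of PyMT-M, for each gene of 17 lists; points are genes, the bar is the list's median and dotted lines mark 2-fold. Activating receptors (median 1.95) lie at the top and type I interferon-stimulated genes (median -1.22) at the bottom.

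Over all genes outside the rule, the largest ratios to CD8 T cells included 6 that came from few cells. Dcpp3, Scgb1b27, Scgb2b27, Clu, Csn3 and Lcn2 are secretory genes, and 4 PyMT-M members held most of their UMIs, such as 2160 of 2221 for Scgb2b27, while all 1200 UMIs of Dcpp3 were in 1 cell. Those 4 cells held 4085 of the 4519 UMIs of 7 epithelial genes found in all PyMT-M members, and the next highest member held 7. Without these 4 cells, the 10 genes with the largest ratios were Spp1 (7.14), Gzmc (6.04), Klra4 (6.02), Klra8 (5.89), Gzmf (5.76), Ccl1 (5.19), Klri2 (4.92), Gzma (3.95), the adhesion gene Pecam1 (3.60) and Klrb1f (3.53). Gzmf had 0 UMIs in CD8 T cells, and against a floor of 3 UMIs over that group it was 22.5-fold higher with all members. Its interval without the 4 cells began at log2 4.21. The 10 genes that were lowest, with all members, were Gzmk (log2 -8.01 [-12.24 to -7.33]), Ly6a (log2 -6.27 [-7.16 to -5.81]), Cd3d, Pdcd1, Slfn1, Retnla, Bcl11b, Adam19, Actn2 and Lat, at ratios down to -8.01 and no higher than -3.36. Cd3d and Lat belong to T cell receptor signalling and Bcl11b is a T-lineage transcription factor, and the rule selects against T cells.

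T cell receptor transcripts were not absent from the members. Cd3g was found in 14.8% of PyMT-N members and 29.6% of PyMT-M members, Cd3d in 3.70% and 4.48%, and Trac in 11.1% and 7.96%. In CD8 T cells of PyMT-M the shares were 99.0%, 96.7% and 67.4%. Cd5, Cd6 and Themis, further T cell genes, had 0 UMIs in members of both libraries. Trdc, the constant gene of the delta chain, was in 18.5% of PyMT-N and 15.4% of PyMT-M members. At least 1 UMI of Cd3d, Cd3g, Trac, Trbc1 or Trbc2 was in 74.1% of PyMT-N and 72.9% of PyMT-M members, and leaving those cells out would keep 7 and 109. Whether some of these cells are T cells with undetected Cd3e was not tested.

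Within PyMT-M, members were divided by whether they held Eomes or Itga1. Eomes without Itga1 was found in 58 cells, both in 58, Itga1 without Eomes in 140 and neither in 146. The 2 genes were not exclusive: Itga1 was in 50% of members with Eomes and 49.0% of members without it. In PyMT-N the same groups held 9, 1, 3 and 14 cells. Counts of both genes are low, and after thinning to 1000 UMIs Eomes was in 5.26% and Itga1 in 12.0% of PyMT-M members, so a 0 is not absence.

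Klf2, Ifng and Prf1 were higher in cells with Eomes alone than in cells with Itga1 alone, while the granule list without Gzma was lower, at 85.8 (82.6 to 89.0) and 120.7 (118 to 123) UMIs per 10000. Klf2, the factor that keeps lymphocytes recirculating, was at 309 CPM in Eomes-only and 14.9 CPM in Itga1-only cells, log2 4.28 [3.56 to 5.29]. Ifng was at 91.9 CPM and 10.7 CPM, and Prf1 at 233 CPM and 74.7 CPM. S1pr5, the sphingosine receptor by which NK cells leave tissues, was in 19.0% and 0%. Median depth was 5419 UMIs in Eomes-only and 6203.5 in Itga1-only cells, and its part in these differences and in those that follow was not tested.

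Itgae, Cxcr6, Klra5 and Gzmc were higher in Itga1-only cells. Itgae was at 67.4 CPM in Eomes-only and 257 CPM in Itga1-only cells, log2 -1.92 [-2.63 to -1.30]. Cxcr6 was at 24.5 CPM and 187 CPM, the inhibitory Ly49 gene Klra5 in 10.3% and 46.4% of cells, and Gzmc at 558 CPM and 1644 CPM. Cells with both genes had 1883 CPM of Gzmc and 21.8 CPM of Klf2, nearer to Itga1-only cells. The ILC1 and tissue-resident list without Itga1 did not follow that order, at 12.3 UMIs per 10000 in Eomes-only cells, 12.2 in cells with both, 18.1 in Itga1-only cells and 20.1 in cells with neither. Xcl1 was nearly the same in both, at 2209 CPM and 2113 CPM. Cd3g was also higher in Itga1-only cells, at 129 CPM in Eomes-only and 363 CPM in Itga1-only cells, as was Tcrg-C1, at 107 CPM and 258 CPM. Other cell type lists also differed between Eomes-only and Itga1-only cells: macrophage genes stood at 1.96 and 5.06 UMIs per 10000, neutrophil genes at 0.368 and 2.41, and epithelial genes at 34.1 and 26.5. The part of these transcripts in the differences was not tested.

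**Figure D4:**
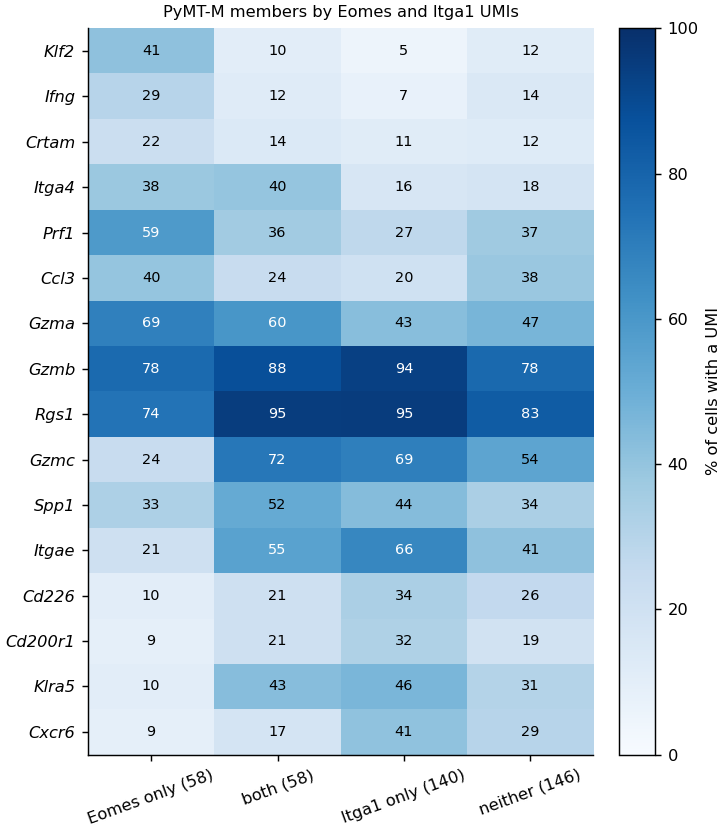
Share of PyMT-M members with a UMI of each gene (rows, in percent) in the 4 groups set by Eomes and Itga1 UMIs (columns, cell numbers in brackets). Klf2 and Ifng are highest in Eomes-only cells, and Itgae, Cxcr6 and Klra5 in cells with Itga1, while Gzmb is common in all 4.

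Genes of each pole were found together in single cells. Itgae was in 63.1% of PyMT-M members with Itga1 and 35.3% of those without it, and in 64.7% of members with Gzmc and 27.6% of those without. Itgae was in 13% of members with Klf2 and 54.6% of those without. These shares are across cells of 1 library whose depths differ. Gzma and Gzmc were close to unrelated, with Gzmc in 58.6% of members with Gzma and 56.8% of those without.

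Members with 10 or more Gzma UMIs differed from members with 0 in other genes. Klf2 was at 148 CPM in the 151 Gzma-high and 10.3 CPM in the 199 Gzma-0 cells, log2 3.72 [3.0 to 4.83]. Prf1 was at 182 CPM and 72.1 CPM, and Gzmb at 6547 CPM and 3527 CPM. Ltb was lower, at 201 CPM and 722 CPM, as was Tcrg-C4, at 42.8 CPM and 131 CPM. Median depth was 6681 and 5616 UMIs, and the macrophage list stood at 4.86 and 2.36 UMIs per 10000; their part was not tested.

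The 27 PyMT-N members were then set beside the 402 PyMT-M members. Over the 7631 genes with 20 UMIs in both together, the median log2 ratio was -0.25, and values are to be read beside it. Because most genes rest on few UMIs in 27 cells, a gene was counted only where its interval lay wholly beyond 1.5-fold, which held for 1.06% of genes upward and 0.865% downward. The 1.5-fold limit was set around equal levels, not around the median. Relative to the median, a gene was thus counted downward more readily than upward. By size alone, 7.34% were at least 2-fold higher and 26.1% at least 2-fold lower. In summed counts, fewer cells with a gene and fewer transcripts per cell cannot be told apart, so shares are given too. In T cell genes, Trbc1 and Trbc2 were counted upward and Cd3g downward, so traces of T cell RNA also differed and their part was not tested.

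Of 15 measured conventional NK cell genes, 4 were counted upward and 0 downward, among them Klf2, Eomes and Cma1, a mast cell protease gene also transcribed in mouse NK cells. Klf2 stood at 389.9 CPM among PyMT-N members, against 71.3 CPM among PyMT-M members, log2 2.43 [1.92 to 2.95]. It was in 66.7% (46.0 to 83.5) of PyMT-N and 13.4% (10.3 to 17.2) of PyMT-M members, and in 33.3% (16.5 to 54.0) and 7.27% (4.92 to 10.3) at 1000 UMIs, intervals that do not overlap. Eomes gave log2 1.48 [0.76 to 2.14] and Cma1 log2 3.60 [2.44 to 5.06], though thinned shares of Eomes were 7.41% and 5.26%.

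Of 16 chemokine and migration receptors, 3 were counted upward, 0 downward and 13 in neither direction. Among them were the integrins Itgal (LFA-1 alpha chain, log2 1.59 [0.97 to 2.17]) and Itga4 (VLA-4 alpha chain, log2 1.93 [1.19 to 2.64]). The cytokine receptor genes Ifngr1 (log2 1.10 [0.64 to 1.54]) and Il18rap (log2 2.86 [1.63 to 4.18]) were counted upward, and in the granule list Prf1 (log2 1.55 [1.01 to 2.07]) and Serpinb9 (log2 1.35 [0.66 to 2.0]).

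Of 18 measured ILC1 and tissue-resident genes, 4 were counted downward (Itgae, Inpp4b, Il21r and Cd200r1) and 1 upward, the migration receptor Gpr183. Itgae was in 1 of 27 PyMT-N members and 197 of 402 PyMT-M members, 3.70% (0.0937 to 19.0) and 49.0% (44.0 to 54.0), and in 3.70% (0.0937 to 19.0) and 16.8% (13.3 to 20.8) after thinning, where the intervals overlap. Itga1 was in 14.8% and 49.3%, at log2 -1.22 [-2.69 to -0.09] that was not counted. Of 17 TGF-beta imprinted genes, 2 were counted downward, Itgae and Rgs1 (log2 -1.28 [-1.57 to -0.99]), and 0 upward. Il21r, the interleukin-21 receptor, had 0 UMIs in PyMT-N members and 127 CPM in PyMT-M members. Set to a floor of 3 UMIs in PyMT-N, it was 4.33-fold lower there, and its interval ended at log2 -1.81.

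Further genes were counted downward singly. Gzmb (log2 -0.87 [-1.05 to -0.70]) and Gzmc (log2 -2.38 [-2.97 to -1.86]) were lower in PyMT-N members. Gzmc rests on 29 UMIs there, and with cycling cells included its log2 ratio was 0.00103, near equality. Of the 260 Gzmc UMIs in the 12 PyMT-N cycling cells, 256 were in 2 cells. By share, Gzmc was in 4 of 12 PyMT-N and 40 of 59 PyMT-M cycling cells. The interleukin-2 family feedback gene Cish (log2 -2.35 [-4.0 to -1.14]), the survival gene Bcl2 (log2 -1.78 [-2.74 to -0.97]), the factors Bhlhe40 (log2 -2.71 [-5.03 to -1.19]) and Junb (log2 -1.0 [-1.29 to -0.72]) and the interferon-stimulated Ifi27l2a (log2 -2.01 [-2.93 to -1.24]) were counted downward too. In the same lists, 2 of 18 JAK-STAT genes were counted downward and 0 upward, 1 of 21 transcription factors downward and 2 upward (Eomes and Klf2), and 1 of 21 immediate early genes downward and 1 upward (Ier3). Ifi27l2a was 1 of 38 interferon-stimulated genes so counted, with 0 upward. Of 16 genes listed as inhibitory receptors, Klra5 was counted downward (log2 -1.70 [-2.93 to -0.72]) and 0 upward, and of 20 activating receptors and adaptors 0 in either direction. Among the genes of this paragraph, the intervals of Gzmb, Junb and Klra5 would not lie wholly beyond 1.5-fold around the median of -0.25. The chemokine gene Ccl4 was not counted (log2 0.46 [0.23 to 0.68]), but was in 70.4% (49.8 to 86.2) of PyMT-N and 37.1% (32.3 to 42.0) of PyMT-M members at 1000 UMIs. Gzma was lower in sum (log2 -0.46 [-0.59 to -0.33], beside a median of -0.25 for all genes) but held by a larger share of cells, as given above.

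Several of these differences were also present between T cells of the 2 libraries. Klf2 was at 920.2 CPM in the 22 PyMT-N and 197 CPM in the 307 PyMT-M CD8 T cells. Rgs1 was at 342 CPM and 710.5 CPM, and Itgae at 0 CPM and 97.8 CPM. Gapdh, a glycolysis gene, stood at 1238 CPM among PyMT-N members and 433 CPM among PyMT-M members (log2 1.51 [1.24 to 1.78]), at 1407 CPM and 533 CPM in CD8 T cells and at 3028 CPM and 501 CPM in macrophages. These genes therefore differed between the libraries in more than 1 cell type. In CD8 T cells Itga4 was at 26.3 CPM and 90.1 CPM, and Bcl2 was closer there, at 447 CPM and 552 CPM. The 22 PyMT-N CD8 T cells held 76071 UMIs together. The 26.3 CPM of Itga4 thus rests on few UMIs, its direction there is uncertain, and 0 CPM of Itgae is not absence.

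**Figure D5:**
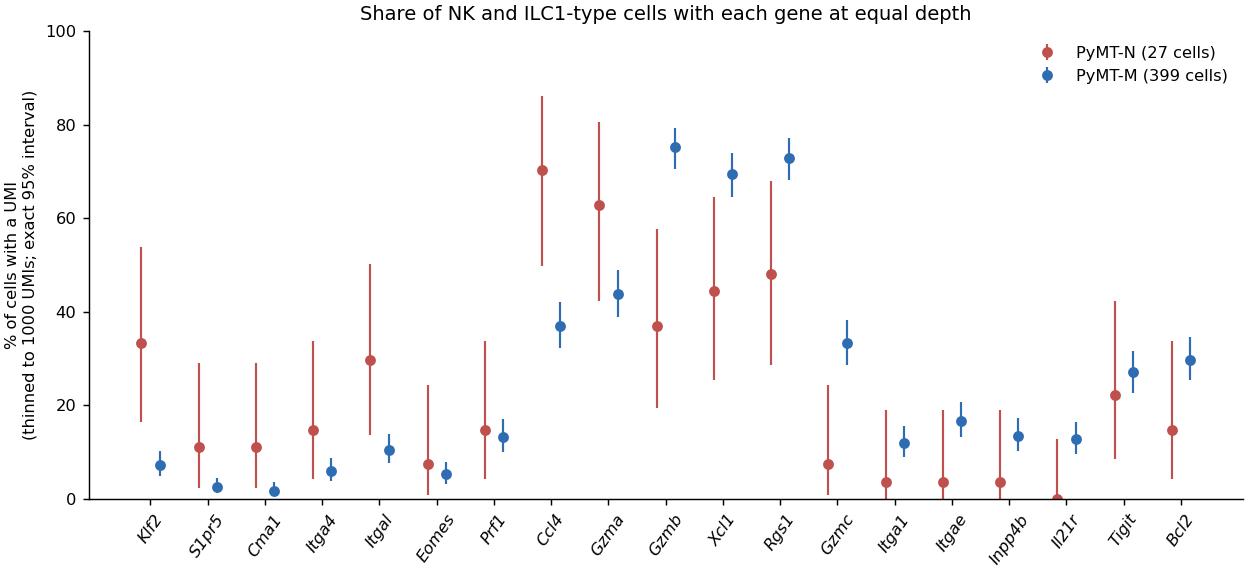
Share of members with a UMI of each of 19 genes after thinning every cell to 1000 UMIs, in PyMT-N (red, 27 cells) and PyMT-M (blue, 399 cells), with exact 95% intervals. Klf2 and Ccl4 intervals lie wholly higher in PyMT-N, and Gzmb, Gzmc and Rgs1 intervals wholly lower, and the intervals of the other 14 genes overlap.

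Over all genes outside the rule, the 10 with the largest ratios in PyMT-N members were Khdc1a (log2 4.05 [3.14 to 5.25]), S100a4 (log2 3.88 [3.30 to 4.55]), Cma1, Phactr3, Gpr183, Ier3, Kbtbd11, Il18rap, Lmna and Ly6a. S100a4, a calcium-binding protein of motile cells, was in 10 of 27 PyMT-N and 40 of 402 PyMT-M members. Khdc1a was in 5 and 12, and had 0 UMIs in CD8 T cells of both libraries. Ier3 and Ly6a rest on 7 and 6 UMIs in 2 PyMT-N cells each. The lowest genes were led by the secretory genes of the 4 PyMT-M cells with epithelial RNA. Without those cells, the lowest included Il21r, Epcam, Psmc1, Tnni1, Stk39, Fndc3a, Dpf2, Snx1 and Cd200r1, all with 0 UMIs in PyMT-N members.

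Cells outside the limit on cycling genes were examined because they meet every other part of the rule. They made up 30.8% (17.0 to 47.6) of the 39 such cells in PyMT-N and 12.8% (9.89 to 16.2) of the 461 in PyMT-M. In PyMT-M the 59 cycling cells held Gzma at 5881 CPM and Gzmb at 3366 CPM, beside 7124 CPM and 4863 CPM in members. Ccl5 was lower in them, at 3131 CPM in cycling cells and 10774 CPM in members, log2 -1.78 [-1.85 to -1.72]. Gzmc was lower in PyMT-M cycling cells (626 CPM) than in members, but at 2216 CPM in the 12 PyMT-N cycling cells, where 2 cells held 256 of 260 UMIs. Klf2 was in 66.7% of PyMT-N and 13.6% of PyMT-M cycling cells, whose median depths were 9495.5 and 10199 UMIs, and the difference was not tested.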

How the data were processed

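Immune cells of PyMT-N and PyMT-M tumours, 1 library a line with the number of tumours not stated, were profiled by 10x Genomics 5′ single-cell RNA sequencing. The authors deposited raw UMI counts per gene and barcode, made with Cell Ranger (software 3.1.0 per the file headers); Cell Ranger, Seurat and the build mm10 are named in the submitters' processing notes. The gene annotation is not given in the sources.

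Barcodes were kept if they held 200 genes or more and no more than 10% of their UMIs were mitochondrial, which left 4994 of 5020 in PyMT-N and 7357 of 7476 in PyMT-M. Members were then found by the rule. Counts were summed over cells and divided by the summed total (CPM), and log2 ratios used a pseudocount of 1 CPM. Intervals are 95%: exact Poisson for sums, Clopper-Pearson for shares and exact conditional binomial for ratios. A group at 0 was set to a floor of 3 UMIs for bounds. With 1 library a group, no test was run. Scrublet in scanpy 1.11.5 made 0 automatic doublet calls and did not work here, so no doublets were removed, and leaving out its highest scores is an alternative. Leaving out the 4 PyMT-M members with 20 or more UMIs of 7 epithelial genes, and thinning to 2000 UMIs, were added after seeing the data. Python 3.11.15, numpy 2.4.6, scipy 1.17.1 and pandas 2.3.3 were used, and the steps were tested on simulated data.

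The members and gene lists were chosen with earlier results of these data known. Genes were named as the 4 given markers, up to 4 of each list with the highest CPM in PyMT-M members and 4 with the largest ratio to CD8 T cells, and up to 10 per direction over all genes with 100 UMIs (CD8 T cells) or 20 UMIs (lines). Further list members are named because they were counted past a threshold, after their values were seen. Some genes that the rule or a count includes are not reported here. Promoter sequences are from RefSeq on GRCm38.p6.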

Additional observations from a re-analysis of the deposited data

How the results depend on the processing

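No paired analysis was possible because each line has 1 library. Of summary values under alternatives, 121 stayed close to those reported and 27 moved. Of gene values, 4092 stayed close, 212 moved and 3 reversed. Close meant inside the reported counting interval for shares and gene ratios, and within 1.5-fold for counts of genes. Reversed meant a change of sign where the reported ratio was at least 2-fold. Intervals of ratios between the lines are wide, so staying close is a weak check there. With further T cell genes at 0, members were 0.140% of PyMT-N and 1.48% of PyMT-M cells. In PyMT-M they were 4.59% with Ncr1 alone and 6.27% without the cycling limit. In PyMT-N, Eomes was 7.41% thinned to 1000, and Itga1 3.70% thinned and 0 with further T cell genes at 0. PyMT-M shares with Eomes were 12.4% at 2 UMIs, 5.26% thinned to 1000 UMIs and 11.7% thinned to 2000. For Itga1 they were 43.1% with further T cell genes at 0, 24.9% at 2 UMIs, 12.0% and 23.8% thinned. For Gzma the share was 43.9% thinned to 1000, and for Gzmc 33.3% and 42.6% thinned. Genes at least 2-fold higher than in CD8 T cells numbered 83 with further T cell genes at 0, 1410 with no minimum and 41 at 500 UMIs, and lower 916 with no minimum and 36 at 500 UMIs. Between lines, 1295 were higher with no minimum and 95 at 100 UMIs, and 4325 and 547 lower, with 1305 lower with further T cell genes at 0. The PyMT-N to PyMT-M log2 ratio changed sign for Gzmc (0.00103 without the cycling limit, near equality), Cd79b (0.28 without it) and Lyz2 (0.12 without the top Scrublet cells). The cause was not tested. The 27 PyMT-N members limit every share there.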

Other observations

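Transcripts of genes usually linked to epithelium were found in PyMT-M members beyond the 4 cells with secretory RNA. Among the other 398 members, Epcam (an epithelial adhesion molecule) was in 127 cells or 31.9% and Spint2 (a protease inhibitor) in 231 or 58%. Spp1, which is not in the epithelial list, was in 159 or 39.9% of them and had 0 UMIs in the 4 cells. In PyMT-M CD8 T cells Epcam was in 7.17% and Spint2 in 29.6%, and in PyMT-M macrophages Epcam was in 1.48%. The keratin genes Krt8 and Krt18 were in 0.251% and 1.01% of the same 398 members, and Wfdc18 in 2.51%. Epcam had 0 UMIs in the 27 PyMT-N members. Members with Epcam held Itga1 in 56.2% and Gzmc in 72.3% of cells, against 46.0% and 50.7% of members without it, across cells whose depths differ.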
